A study of Mus musculus with 6 samples.

Results

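The NUAK, MARK and AMPK kinases belong to the family of AMP-activated protein kinase (AMPK) and its relatives, serine/threonine kinases that share one type of kinase domain. 10 genes of the family other than the salt-inducible kinases were taken by symbol, namely Nuak1, Nuak2, Mark1, Mark2, Mark3, Mark4, Prkaa1, Prkaa2, Brsk1 and Melk. These are 10 of the 39179 genes listed in the table of the series, and 9 of the 10 (all except Prkaa2) reached the expression level set for a test, 0.5 RPKM or more in 2 or more libraries. RPKM divides the reads of a gene by its length and by the depth of the library, so levels of different genes can be compared only as far as the gene length used is right, and that length is not stated. The genes were chosen by name, but with the comparisons of these libraries already known. Their values are therefore a description, and the adjusted p-values below, which come from the fit of all genes, are not independent evidence about the set.

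RNA was sequenced from Ocy454 cells, a mouse osteocyte-like cell line that was used as a single subclone. Cells were treated with vehicle, parathyroid hormone (PTH) or YKL-05-093, a compound that inhibits the salt-inducible kinases (SIKs). The authors report that it also targets other kinases in vitro. In their panel, at a lower concentration than here, NUAK2 was strongly inhibited, and MELK and MARK3 less so. NUAK1, MARK1, BRSK1 and the alpha 1 subunit of AMPK were less affected there. The part of these targets in the RNA was not tested. In all 3 conditions the cells were grown to confluence at 33 °C, kept for 14 days at 37 °C, and given fresh medium 24 h before collection. Vehicle was given as PBS with 25 mM HCl. The authors' methods name DMSO stocks of the compound for in vitro work, so whether vehicle and YKL-05-093 had the same solvent is not settled. The PTH fragment of residues 1 to 34 was used at 1 nM, and YKL-05-093 at 0.5 µM. Each condition lasted 4 h and had 2 libraries. No genetic change was made in any condition, and the sources do not say that the 2 libraries came from separate cultures, so the p-values measure the spread between these libraries, which may be technical.

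The reads behind the RPKM values came to between 17505798 and 27983585 per library. The vehicle libraries were the least alike, with a median absolute log2 difference of 0.333 between them, against 0.108 for PTH and 0.103 for YKL-05-093. Vehicle replicate 1 was above vehicle replicate 2 in 9 of the 10 kinase genes, the exception being Prkaa2. Of 6 osteocyte markers, 3 (Dmp1, Phex and Pdpn) reached 0.5 RPKM in a condition, and Sost, the gene of sclerostin, had at most 3 reads in any library. All 5 markers of the osteoblast lineage reached that level, with a summed level of 396 to 523 RPKM in vehicle, 490 to 556 RPKM with PTH and 445 to 539 RPKM with YKL-05-093, most of it Col1a1 (259 to 430 RPKM over the libraries). Single members went opposite ways with PTH, where Sp7 fell from a mean of 45.8 to 11.6 RPKM and Bglap rose from 9.04 to 26.2 RPKM (changes of -1.97 and 1.58, limma, adjusted p = 0.00190 and 0.0287), while Runx2 had means of 16.3 and 7.45 RPKM. The summed osteocyte markers ran from 55.7 to 73.3 RPKM in vehicle, 165 to 176 RPKM with PTH and 98.4 to 99.1 RPKM with YKL-05-093, most of it Pdpn. Among the other lists, 1 of 3 adipocyte markers (Cebpa), 1 of 3 endothelial markers (Kdr), 2 of 3 chondrocyte markers (Col2a1 and Sox9), 0 of 3 macrophage markers and 0 of 3 muscle markers reached 0.5 RPKM, and Cdh5 and Myod1 were listed at 0 in each library. The summed macrophage markers stayed at or below 0.156 RPKM. The part of these differences in the results below was not tested, and fewer cells of a type and less RNA per cell cannot be told apart in bulk RNA.

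AMPK is a sensor of cellular energy. Its catalytic alpha subunits, encoded by Prkaa1 and Prkaa2, work in a complex with beta and gamma subunits, and the relatives act without that complex. Most kinases of the family are switched on by phosphorylation of their activation loop by LKB1 (Stk11), with Melk as an exception that activates itself. NUAK1 and NUAK2 bind and phosphorylate the subunits of myosin phosphatase that set cell adhesion and contraction, and the MARK kinases phosphorylate proteins that bind microtubules, which releases them. Several members of the family can also phosphorylate class IIa histone deacetylases, which then bind 14-3-3 proteins and stay in the cytoplasm.

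Nuak1 was the only kinase gene tested whose change passed the test given below. Mark3 was the member closest to it in deposited RPKM in vehicle-treated cells (not so with annotated gene lengths, given with the order of levels). Shown here are the stretches before the transcription starts of Nuak1 and Mark3. Both are the 250 bases upstream of the start site, 5′ to 3′ on the strand of the gene, from RefSeq on GRCm38.p6, chr10:84440669-84440918 on the minus strand for Nuak1 (its RefSeq start lies 71 bases before that of GENCODE M21) and chr12:111574260-111574509 on the plus strand for Mark3. Capitals mark the GC box (GGGCGG or CCGCCC, the motif on either strand) and the shorter form of the cAMP response element, CRE (TGACG or CGTCA, likewise).
Nuak1: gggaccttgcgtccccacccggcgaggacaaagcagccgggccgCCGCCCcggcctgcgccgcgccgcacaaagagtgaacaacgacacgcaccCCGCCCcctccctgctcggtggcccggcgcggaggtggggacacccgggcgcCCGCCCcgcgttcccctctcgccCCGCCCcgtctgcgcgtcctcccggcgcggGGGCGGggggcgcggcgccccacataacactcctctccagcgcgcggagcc
Mark3: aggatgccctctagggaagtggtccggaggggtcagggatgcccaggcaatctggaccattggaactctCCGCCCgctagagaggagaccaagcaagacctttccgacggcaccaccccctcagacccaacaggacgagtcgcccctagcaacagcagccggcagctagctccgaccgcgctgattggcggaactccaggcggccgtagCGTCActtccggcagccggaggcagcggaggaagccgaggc
In the 300-base window that runs from 250 bases before the start to 50 bases after it, Nuak1 held 5 GC boxes, which begin at -206, -156, -104, -81 and -51, and 77% of its bases were G or C. No short CRE was found in that window, nor the full CRE (TGACGTCA, which contains the short form), a TATA box (TATAAA or TTTATA) or a MEF2 site. Mark3 held 1 GC box at -181 and 1 short CRE at -41. Promoters were matched for 8 of the 10 genes, in 11 windows, and not for Nuak2 and Mark4. A short CRE was also present at -196 in Prkaa2 and at -185 in 1 of the 2 windows of Mark2, and no window of the 8 genes held the full CRE or a MEF2 site. Over all 32851 promoter windows of this length, 35.7% held a GC box, 20.8% a short CRE, 1.79% a full CRE, 3.19% a MEF2 site and 13.6% a TATA box, and the median content of G and C was 52.7%. These matches describe the letters in the windows and were not tested against the RNA.

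Nuak1 RNA was lower after both treatments, and more so with PTH. Nuak1 (ENSMUSG00000020032, chr10:84370905-84440597 on the minus strand of GRCm38) encodes ARK5, a kinase of cell adhesion. Its level was 33.7 and 23.7 RPKM in the vehicle libraries, 3.45 and 3.50 RPKM with PTH, and 8.05 and 9.40 RPKM with YKL-05-093. The 3 conditions did not overlap, since the lowest vehicle library was above both YKL-05-093 libraries and these were above both PTH libraries. The recovered reads behind these values ranged from 381 in PTH replicate 2 to 3783 in vehicle replicate 2. The mean fell from 28.7 ± 7.09 RPKM in vehicle to 3.48 ± 0.03 RPKM with PTH and 8.72 ± 0.955 RPKM with YKL-05-093 (SD, n = 2), or to 12.1% and 30.4% of the vehicle mean.

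On the scale of log2(RPKM + 0.1), Nuak1 changed by -2.99 with PTH (SE 0.20, 95% interval -3.46 to -2.51), which is 7.93-fold lower (limma, adjusted p = 0.00139). After YKL-05-093 the change was -1.69 (SE 0.21, 95% interval -2.19 to -1.18), or 3.22-fold lower (limma, adjusted p = 0.0279). PTH compared directly with YKL-05-093, without the vehicle libraries, gave -1.30 (SE 0.09, 95% interval -1.49 to -1.11), or 2.46-fold lower with PTH (limma, adjusted p = 8.25e-08). Counted from the most negative change, Nuak1 was number 25 of 14261 genes for PTH and number 107 of 14255 for YKL-05-093. The YKL-05-093 call rested on single libraries. It was lost without vehicle replicate 1 (adjusted p = 0.0572), without YKL-05-093 replicate 1 (0.471) and without YKL-05-093 replicate 2 (0.10), with changes of -1.43 to -1.94 over the 4 fits that leave out 1 library. The direct comparison lost its call without PTH replicate 1 (adjusted p = 0.144) or PTH replicate 2 (0.129), at -1.29 and -1.31 (limma), while the PTH call was kept without each library in turn. Both comparisons with vehicle use the same 2 vehicle libraries. An exact two-sided permutation test of 2 libraries against 2 cannot go below p = 0.333, so none was used.

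**Figure D1:**
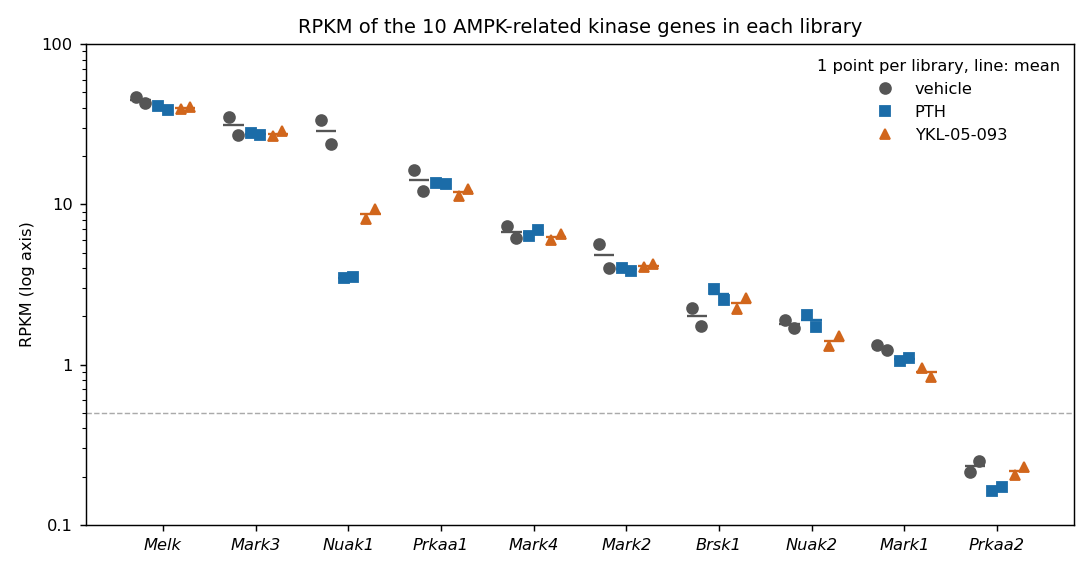
RPKM of the 10 kinase genes on a log axis, 1 point per library and a line at the mean of each condition, with genes in the order of their vehicle mean and a dashed line at 0.5 RPKM. Nuak1 spans 3.45 to 33.7 RPKM over the 6 libraries, while the points of each other gene lie close together, and Prkaa2 stays below the dashed line.

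Nuak1 was the 1 gene called among the 9 kinase genes tested, in each of the 3 comparisons, where a call needs both an adjusted p below 0.05 and a difference above 2-fold. Over all genes tested, the comparison of PTH with vehicle called 1.91%, that of YKL-05-093 with vehicle 0.652% and that of PTH with YKL-05-093 1.21%, and the shares called lower were 0.813%, 0.274% and 0.470%. These calls belong to the comparisons in view when the genes were chosen, so nothing is read from the difference. The other 8 kinase genes had changes from -0.28 to 0.44 with PTH, from -0.47 to 0.26 with YKL-05-093 and from -0.08 to 0.40 between the treatments, on the log2 scale. Their adjusted p-values from limma were at least 0.400, 0.546 and 0.114. The 95% intervals of these 8 genes together ran from -0.74 to 0.91, from -0.92 to 0.74 and from -0.25 to 0.71, so a change of 2-fold lay outside the interval of each, and changes inside the intervals were not resolved with 2 libraries per condition. The median absolute change of the 8 was 0.163, 0.223 and 0.130, against 0.20, 0.178 and 0.124 over all genes. The medians over the 9 genes tested were -0.16, -0.20 and 0.08, against -0.03, -0.04 and 0.01 over all genes.

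**Figure D2:**
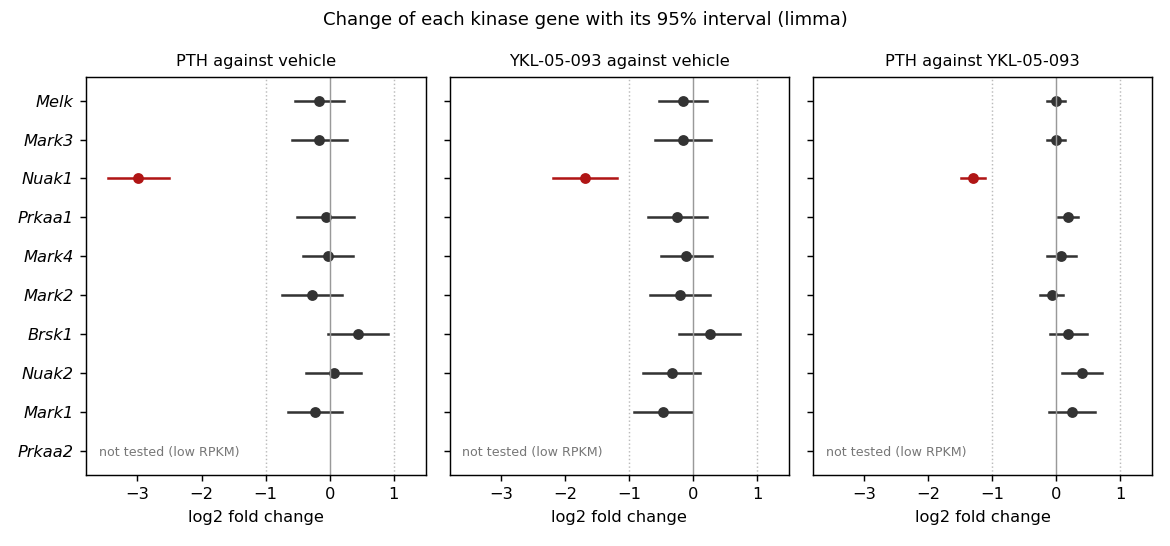
Log2 fold change of each kinase gene (points) with its 95% interval from limma (lines) in the 3 comparisons, with called genes in red, dotted lines at a 2-fold change and Prkaa2 left out because of its low RPKM. Nuak1 lies at -2.99, -1.69 and -1.30, and the intervals of the other 8 genes stay between the dotted lines.

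The libraries of some kinase genes did not overlap between conditions. This held for 5 of the 9 tested for PTH against vehicle (Nuak1, Mark1, Mark2, Brsk1 and Melk), where 43.1% of all genes had no overlap. It held for 4 of 9 (Nuak1, Nuak2, Mark1 and Melk) when YKL-05-093 was set against vehicle, where the share of all genes was 37.8%, and for 5 of 9 (Nuak1, Nuak2, Mark1, Mark2 and Prkaa1) between the treatments, where it was 50.0%. Nuak1 is in each of these counts, and the other genes named had no overlap without passing the test. The counts are close to the share of all genes.

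Nuak2, also called SNARK, is the nearest relative of Nuak1 and is encoded on another chromosome (ENSMUSG00000009772, chr1:132316126-132333488 on the plus strand). Its level was 1.91 and 1.69 RPKM in vehicle, 2.05 and 1.73 RPKM with PTH, and 1.31 and 1.51 RPKM with YKL-05-093. The PTH libraries overlapped those of vehicle, and the YKL-05-093 libraries were the lowest. The changes were 0.06 with PTH and -0.33 with YKL-05-093 (limma, adjusted p = 0.924 and 0.742). Between the treatments Nuak2 differed by 0.40 (95% interval 0.08 to 0.71), with an unadjusted p of 0.0168 and an adjusted p of 0.114 in limma. With 112 to 200 reads per library, Nuak2 was measured less finely than Nuak1.

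Within the NUAK pair, Nuak1 made up 94.0% ± 0.931 of the summed RPKM in vehicle, 64.8% ± 2.98 with PTH and 86.1% ± 0.112 with YKL-05-093 (SD, n = 2). In single libraries its share was 93.3% and 94.6% in vehicle, 62.7% and 66.9% with PTH, and 86.0% and 86.2% with YKL-05-093. Nuak1 thus stayed the more abundant of the pair in each library. Of the summed RPKM of all 10 kinase genes, the NUAK pair held 22.4% ± 1.94 in vehicle, 5.33% ± 0.0832 with PTH and 9.77% ± 0.570 with YKL-05-093. That sum was 121 and 150 RPKM in the vehicle libraries and 99.2 to 107 RPKM in the 4 treated ones. Without Nuak1 it was 97.1 and 116 RPKM in vehicle and 91.8 to 98.7 RPKM after treatment, and the conditions overlapped. Sums and shares over genes rest on the unstated gene lengths.

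**Figure D3:**
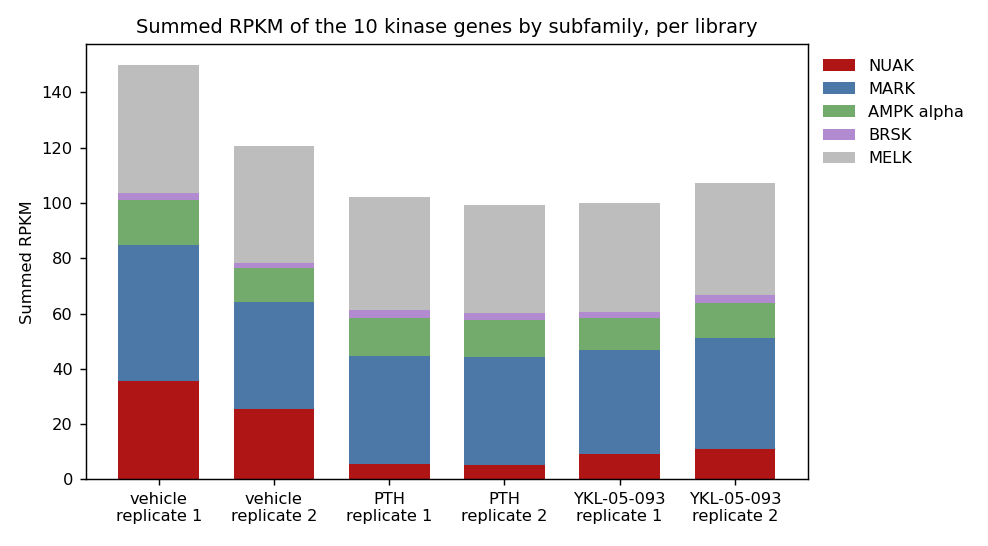
Summed RPKM of the 10 kinase genes in each of the 6 libraries, stacked by subfamily from 0. The NUAK segment makes up a mean of 22.4% of the sum in vehicle, 5.33% of that with PTH and 9.77% of that with YKL-05-093. The MARK segment is 49.1 RPKM in vehicle replicate 1 and 37.6 to 40.3 RPKM in the other libraries.

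The 4 MARK genes encode kinases that govern microtubule stability and cell polarity, and their changes did not pass the test. Mark3 (ENSMUSG00000007411, chr12:111574523-111656221 on the plus strand), also called C-TAK1, had 34.8 and 27.2 RPKM in vehicle, 27.8 and 27.1 RPKM with PTH, and 26.5 and 28.7 RPKM with YKL-05-093. The treated libraries lay around the lower vehicle library, with changes of -0.17 and -0.16 (limma, adjusted p = 0.780 and 0.884). Mark3 and Nuak1 overlapped in vehicle, and in the 4 treated libraries Mark3 was above Nuak1.

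Mark2 (ENSMUSG00000024969, chr19:7275396-7341860, minus strand) had 5.68 and 4.03 RPKM in vehicle, 4.01 and 3.85 RPKM with PTH, and 4.07 and 4.22 RPKM with YKL-05-093. Vehicle replicate 1 stood above the other 5 libraries, which lay together. The changes were -0.28 and -0.20 (limma, adjusted p = 0.649 and 0.865). Without vehicle replicate 2, the PTH change of Mark2 was -0.52 and that of Mark3 was -0.34 with adjusted p-values of 0.0183 and 0.0288 in limma, and the YKL-05-093 change of Mark2 was -0.45 with an adjusted p of 0.0428, each below 2-fold.

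Mark4 (ENSMUSG00000030397, chr7:19424775-19458821, minus strand) ran from 6.00 to 7.31 RPKM over the 6 libraries, with all conditions overlapping vehicle. Mark1 (ENSMUSG00000026620, chr1:184896789-184999570, minus strand) was the least abundant of the 4. It had 1.32 and 1.23 RPKM in vehicle, 1.05 and 1.1 RPKM with PTH, and 0.947 and 0.841 RPKM with YKL-05-093. The 3 conditions did not overlap, in the order vehicle, PTH and YKL-05-093, at 79 to 156 reads per library. The change with YKL-05-093 was -0.47 (95% interval -0.92 to -0.02), with an unadjusted p of 0.0430 and an adjusted p of 0.546 in limma. Mark3 held 70.6% ± 0.334 of the MARK RPKM in vehicle, 70.3% ± 0.979 with PTH and 70.9% ± 0.376 with YKL-05-093. Its share thus differed by less than the spread within the PTH libraries. The size of the share rests on the unstated gene lengths. With the deposited values rescaled to the merged exons of GENCODE M21, the vehicle level of Mark3 was 10.8 rather than 31.0 RPKM, and that of Mark4 was 3.25 rather than 6.76 RPKM. Reads were not recounted over those longer exons, so the rescaled levels may be too low. GENCODE M21 lists 2 pseudogenes named for Mark1 and 1 for Mark4, and how reads shared with such copies were counted is not stated.

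AMPK alpha came almost wholly from Prkaa1 (alpha 1, ENSMUSG00000050697, chr15:5143861-5181899, plus strand). Its level was 16.3 and 12.2 RPKM in vehicle, 13.5 and 13.5 RPKM with PTH, and 11.2 and 12.5 RPKM with YKL-05-093. The PTH libraries lay between those of vehicle, and the YKL-05-093 libraries around the lower of them. The changes were -0.06 and -0.24 (limma, adjusted p = 0.931 and 0.831), and between the treatments 0.18 (95% interval 0.03 to 0.34, unadjusted p = 0.0255, adjusted p = 0.149 in limma). Prkaa2 (alpha 2, ENSMUSG00000028518, chr4:105029874-105109890, minus strand), the form known from muscle, had 0.215 and 0.251 RPKM in vehicle, 0.163 and 0.171 RPKM with PTH, and 0.204 and 0.230 RPKM with YKL-05-093. At 26 to 56 reads per library it was detected in each of them, but below the level for a test. With the minimum lowered to 0.1 RPKM its changes were -0.32 and -0.07 (limma, adjusted p = 0.695 and 0.967). Prkaa1 held 98.3%, 98.8% and 98.2% of the AMPK alpha RPKM in the 3 conditions.

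Brsk1 (ENSMUSG00000035390, chr7:4690604-4715997, plus strand), a kinase best known from the polarity of neurons, was the only one of the 9 whose value was higher after both treatments. It had 2.27 and 1.75 RPKM in vehicle, 2.98 and 2.54 RPKM with PTH, and 2.21 and 2.62 RPKM with YKL-05-093. Both PTH libraries were above both vehicle libraries, while those of YKL-05-093 overlapped vehicle. The change with PTH was 0.44 (95% interval -0.02 to 0.91) with an unadjusted p of 0.0577 and an adjusted p of 0.400 in limma. Exons of Brsk1 overlap those of Tmem150b on the opposite strand, and whether the counting used strand is not stated, so reads of the pair cannot be told apart with certainty.

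Melk (ENSMUSG00000035683, chr4:44300876-44364675, plus strand), a kinase gene of dividing cells, was the most abundant of the set. It had 46.5 and 42.6 RPKM in vehicle, 40.8 and 38.8 RPKM with PTH, and 39.3 and 40.6 RPKM with YKL-05-093. Both treated pairs were just below the vehicle libraries, with changes of -0.16 and -0.16 (limma, adjusted p = 0.759 and 0.868). Of 8 mitotic genes (Mki67, Top2a, Ccnb1, Cdk1, Plk1, Aurkb, Bub1 and Foxm1) 0 passed the test in any comparison, with median changes of -0.30, -0.22 and -0.10, against -0.03, -0.04 and 0.01 for all genes. Vehicle replicate 1 stood far above the rest for Mki67 (46.3 and 19.1 RPKM in vehicle, 19.9 and 18.8 RPKM with PTH) and Top2a (196 and 111 RPKM, 123 and 113 RPKM). It was also the higher vehicle library for Bub1 and Foxm1, but not for Ccnb1, Cdk1, Plk1 and Aurkb.

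In vehicle, the order of the levels was Melk with 44.5 ± 2.80 RPKM, Mark3 with 31.0 ± 5.35 RPKM, Nuak1 with 28.7 ± 7.09 RPKM, Prkaa1 with 14.2 ± 2.91 RPKM and Mark4 with 6.76 ± 0.786 RPKM. Lower down came Mark2 with 4.86 ± 1.16 RPKM, Brsk1 with 2.01 ± 0.368 RPKM, Nuak2 with 1.80 ± 0.152 RPKM, Mark1 with 1.28 ± 0.0661 RPKM and Prkaa2 with 0.233 ± 0.0255 RPKM. Neighbours overlapped only for Mark3 with Nuak1 and for Brsk1 with Nuak2. Nuak1 moved from place 3 in vehicle to place 6 with PTH, below Mark2, and to place 4 with YKL-05-093, below Prkaa1, while the other 9 genes kept their order among themselves. The order depends on the gene length behind the RPKM. With the deposited values rescaled to the merged exons of the GENCODE M21 annotation, the vehicle mean of Mark3 was 10.8 RPKM and that of Mark4 was 3.25 RPKM. The first 6 then became Melk, Nuak1, Prkaa1, Mark3, Mark2 and Mark4, and Nuak2 and Brsk1 changed places. Reads were not recounted over those exons, so rescaled levels of genes with a longer annotated length may be too low. Neither order is settled.

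**Figure D4:**
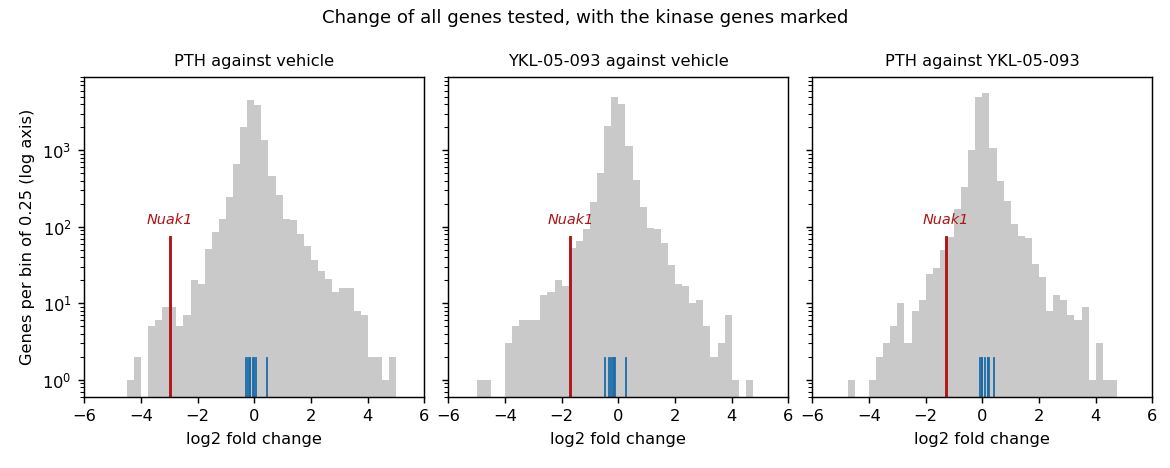
Number of genes per 0.25 step of log2 fold change (grey, log axis) over all genes tested in each comparison, with Nuak1 as a tall red line and the other 8 kinase genes tested as short blue lines. Nuak1 lies in the lower tail at -2.99, -1.69 and -1.30, and the other 8 lie between -0.47 and 0.44 near the centre.

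The profile of Nuak1 over the libraries, high in vehicle, low with YKL-05-093 and lowest with PTH, was compared with 1260 genes whose condition means spanned at least 1 on the log2 scale. The 5 most similar by Pearson's r of log2(RPKM + 0.1) over the 6 libraries were Chst15 (r = 0.997), a sulfotransferase of chondroitin sulfate, Ell2 (0.995), an elongation factor of RNA polymerase, Fam101b (0.995), which encodes a filamin-binding protein, Tmeff1 (0.994), a transmembrane protein with EGF-like and follistatin-like domains, and Cdk5r1 (0.993), the activator of the kinase CDK5. All points share the same 6 libraries, and the r values are a description. Chst15 came nearest in size as well, with 11.2 and 9.49 RPKM in vehicle, 2.28 and 2.36 RPKM with PTH, and 3.90 and 4.34 RPKM with YKL-05-093, with changes of -2.11 and -1.31 against vehicle. The other 4 had changes of -1.05 to -1.51 with PTH and -0.55 to -0.91 with YKL-05-093. These changes follow from the choice of the genes for this profile and are given without a test. For Nuak2 the most similar of 1261 genes were Gm16574 (r = 0.966), Dusp4 (0.951), Arrdc4 (0.944), Mir125b-1 (0.942) and Adamts5 (0.938), of which Gm16574 and Mir125b-1 had at most 12 and 14 reads in a library.

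**Figure D5:**
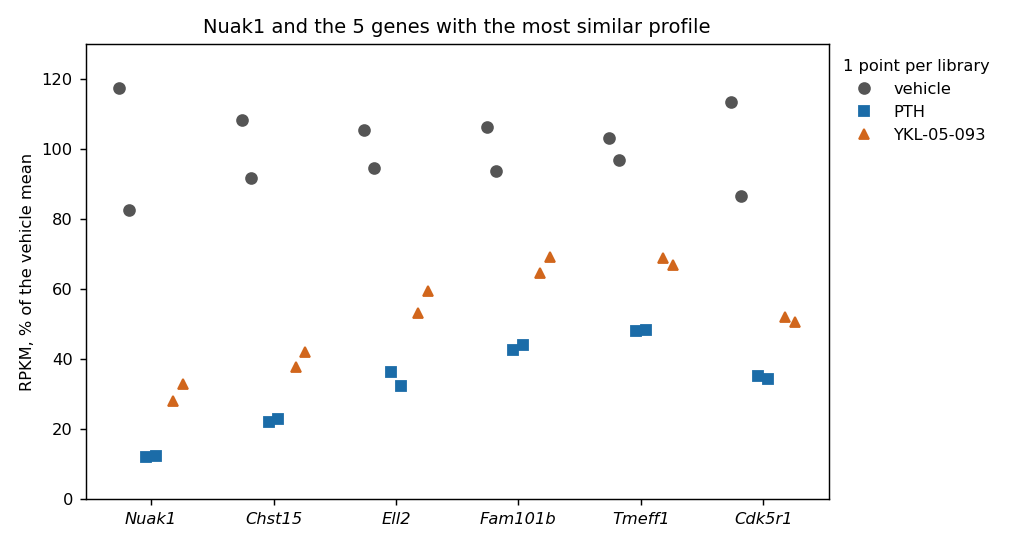
RPKM of Nuak1 and of the 5 genes with the most similar profile, as a percent of the vehicle mean of each gene, 1 point per library on a linear axis from 0. In each of the 6 genes the vehicle libraries are highest and the PTH libraries lowest, and Nuak1 reaches the lowest level, 12.1% with PTH.

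Among the 7 other kinases of the family, 5 were tested, and Brsk2 and Nim1k were too low. Sik1 rose with YKL-05-093, from 1.68 and 1.22 RPKM to 4.31 and 4.14 RPKM, with 2.81 and 2.40 RPKM with PTH. Its change was 1.49 for YKL-05-093 and 0.81 for PTH (limma, adjusted p = 0.0320 and 0.121), and it was lower with PTH than with YKL-05-093 by -0.68 (adjusted p = 0.000505). Sik2 and Snrk were higher with PTH than with YKL-05-093, by 0.41 and 0.34 (limma, adjusted p = 0.0304 and 0.0153), and did not pass against vehicle. Over all genes, 2.19% passed an adjusted p of 0.05 for PTH against vehicle (1.26% higher and 0.940% lower). The share was 0.652% for YKL-05-093 (0.379% higher) and 9.92% between the treatments (4.83% higher and 5.09% lower with PTH), which is the background for this list and those that follow. Between the treatments, the 1414 genes that passed became 145 in 1 fit of all 6 libraries and 499 with the trend on the mean value. The differences between the treatments named for these lists were all below 2-fold. How list genes fared in other settings, in any comparison, is not reported here.

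The partners of these kinases were mostly without a change that passed. Of the 5 AMPK beta and gamma subunit genes, 4 were tested and 0 passed in any comparison, with medians of 0.04, -0.03 and 0.06. Of the 8 upstream kinases and their partners, Stk11, Strada, Stradb, Cab39, Cab39l, Camkk1, Camkk2 and Map3k7, all were tested and 0 passed, with medians of -0.14, -0.04 and 0.04. Their changes against vehicle ran from -0.36 to 0.18 for PTH and from -0.45 to 0.13 for YKL-05-093.

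Of 13 AMPK substrates, 11 were tested. Tbc1d4 (AS160), a regulator of glucose transporter traffic, fell with PTH, from 3.55 and 2.68 RPKM to 1.33 and 1.18 RPKM, a change of -1.23 (limma, adjusted p = 0.0216), and had 1.95 and 1.81 RPKM with YKL-05-093. Between the treatments Tbc1d4 (-0.54), the transcription factor gene Foxo3 (-0.41) and Tbc1d1 (-0.26) were lower with PTH, with adjusted p-values of 0.00281, 0.000514 and 0.0163 in limma. The medians of the list were -0.31, -0.13 and -0.10, against -0.03, -0.04 and 0.01 for all genes.

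Of the genes of myosin phosphatase, a complex that NUAK1 phosphorylates, 4 of 4 were tested and 0 passed against vehicle. Between the treatments Ppp1r12a and Ppp1r12b, which encode targeting subunits, were lower with PTH by -0.26 and -0.31 (limma, adjusted p = 0.0205 and 0.0270). Ppp1r12a had 60.3 and 37.4 RPKM in vehicle, 34.2 and 31.9 RPKM with PTH, and 39.6 and 39.2 RPKM with YKL-05-093, so vehicle replicate 1 stood far above the rest.

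Of 10 MARK substrates, 6 were tested. Hdac4 (ENSMUSG00000026313, 1 of 2 identifiers listed under that symbol), a class IIa histone deacetylase, rose with PTH from 10.9 and 6.74 RPKM to 28.1 and 26.6 RPKM, by 1.66 (limma, adjusted p = 0.0175), and had 18.3 and 18.5 RPKM with YKL-05-093 (change 1.09, adjusted p = 0.140). Between the treatments Hdac4 was higher with PTH by 0.57, and Hdac5 and the microtubule protein gene Map4 were lower by -0.77 and -0.40 (limma, adjusted p = 2.35e-05, 1.01e-06 and 0.000778). Of the 7 genes of 14-3-3 proteins, 7 were tested and 0 passed against vehicle, and Ywhah was lower with PTH than with YKL-05-093 by -0.37 (limma, adjusted p = 0.000927). The medians of the 14-3-3 list were -0.28, -0.13 and -0.17.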

How the data were processed

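The authors depleted ribosomal RNA and made directional libraries. Alignment was by STAR on mm10/GRCm38, and counting by HTSeq 0.6.0 on Ensembl release 75. They deposited linear RPKM values of 6 libraries, and the submitters' processing notes name CASAVA 1.7. How gene length was taken is not stated. The table holds 0 columns of other samples.

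Whole reads were recovered as the smallest whole gene length that turns all 6 values of a gene into whole reads, to within 0.01 reads. This succeeded for all 26214 genes above 0, as the search was set to do. The lengths of 35.9% of them equal the merged exons of GENCODE M21 less 1 base per exon. On simulated libraries the recovery was exact for 99.0% of 11411 genes. The reads set the trend of the spread only and did not replace the deposited values.

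limma 3.58.1 in R 4.3.3 took log2(RPKM + 0.1) of the genes at 0.5 RPKM or more in 2 or more of the 6 libraries. It used a trend on mean log2 reads and Benjamini-Hochberg adjustment over all genes, on the 4 libraries of each comparison. The fit was also run on simulated libraries that were all set to vary alike. The vehicle libraries here varied more than the treated ones, so that run does not check this case. A gene passed at an adjusted p under 0.05 and was called where it also changed over 2-fold. The kinase genes, the gene lists, the test and its settings were chosen with earlier results of these data known. Named are the 10 kinase genes, list genes that passed (up to 6 a list, of which 1 is not reported here), and the 5 genes most like Nuak1 and Nuak2. Replicate numbers name libraries only: same-numbered libraries deviated with correlations of -0.03, -0.05 and -0.05, so no block was used. Alternatives were other pseudocounts, filters, trend, scaling, 1 fit of all libraries, the block, voom and leaving out each library, and, added after seeing the data, annotated gene lengths. Positions are from GENCODE M21 and promoters from RefSeq GRCm38.p6. The figures were drawn with matplotlib 3.10.9. The authors' own comparisons, animal and protein data were not used here, apart from the kinase panel named with the treatments.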

Additional observations from a re-analysis of the deposited data

How the results depend on the processing

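With 2 libraries per condition, changes inside the 95% intervals of these genes were not resolved, and a library left out leaves 1 in its condition, which is then assumed to vary like the others. Over 13 alternatives, Nuak1 was lower in each comparison. For PTH it was called in 12, at -3.24 to -2.71, and lost the call with no filter on low values (-2.99, adjusted p = 0.0559, limma). For YKL-05-093 it was called in 8, at -1.94 to -1.43 (also the range without 1 library), and lost it with no filter (-1.69, adjusted p = 0.201), with the trend on the mean log2 value (-1.69, adjusted p = 0.0990) and without vehicle replicate 1 or either YKL-05-093 library. Between the treatments it was called in 11, at -1.41 to -1.12, and lost it without either PTH library. Without 1 library its change ran from -3.24 to -2.73 for PTH and from -1.41 to -1.19 between the treatments.

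The number of genes called for PTH, 272, became 0 with no filter (2336 at an unadjusted p under 0.05, limma), 160 with the trend on the mean value, 442 with the replicate block and 14 to 670 without 1 library. For YKL-05-093, 93 became 55 with a pseudocount of 1 RPKM, 57 with the filter at 0.1 RPKM, 0 with no filter (1734 unadjusted), 6 with the trend on the mean value, 173 in 1 fit of all 6 libraries, 213 with the block and 11 to 322 without 1 library. Between the treatments, 172 became 98 with a pseudocount of 1 RPKM, 101 in 1 fit and 0 to 155 without 1 library (0 without either PTH library, with 2128 and 2025 unadjusted, limma). voom on the recovered reads called 286, 96 and 192. The cause of these shifts was not tested. With the replicate block, Nuak1 kept its call in all 3 comparisons and the other 8 kinase genes gained none, and since the numbers name libraries only, the block is no sign of pairing.

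Of 315 recomputed values of the other kinase genes, 301 kept direction and call, 14 changed sign and 0 gained a call. Mark4 with PTH was 0.0053 when libraries were scaled by the median of ratios. The other 13 changed sign when 1 library was left out, where the PTH changes ran from -0.055 to 0.18 for Nuak2, -0.34 to 0.011 for Mark3, -0.14 to 0.091 for Mark4 and -0.27 to 0.15 for Prkaa1, the YKL-05-093 changes from -0.45 to 0.039 for Mark2, -0.33 to 0.018 for Mark3 and -0.22 to 0.015 for Mark4, and those between treatments from -0.063 to 0.048 for Mark3 and -0.040 to 0.030 for Melk. Scaling moved the median of all genes by less than 0.1.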

Other observations

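The genes tested within 250 kb of Nuak1, looked up after its values had been seen, were Ckap4, which encodes a membrane protein of the endoplasmic reticulum, Tcp11l2 and Polr3b, a subunit gene of RNA polymerase III. Ckap4, 85.7 kb away, had 76.6 ± 4.30 RPKM in vehicle, 55.8 ± 1.22 RPKM with PTH and 64.9 ± 2.65 RPKM with YKL-05-093 (SD, n = 2). Its changes were -0.46 and -0.24 (limma, adjusted p = 0.318 and 0.816). Tcp11l2, 136 kb away, had 2.76 ± 0.253 RPKM in vehicle, 4.49 ± 0.592 RPKM with PTH and 5.50 ± 0.198 RPKM with YKL-05-093. It was thus higher in value after both treatments, with changes of 0.68 and 0.97 that did not pass (limma, adjusted p = 0.142 and 0.0714). Between the treatments Tcp11l2 was lower with PTH by -0.29, the same direction as Nuak1, and did not pass (limma, adjusted p = 0.127). Polr3b, 182 kb away, changed by -0.12 and -0.18 and did not pass either.

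Hunk, a kinase of the same family, had changes of -0.64 with PTH and -0.83 with YKL-05-093 that did not pass the test (limma, adjusted p = 0.187 and 0.184), and it was singled out after its values were seen.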
